A study of Mus musculus with 6 samples.

Results

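The genes described are 41 genes of mammary and skin epithelium, read by gene symbol from a count table of 52550 genes; each of the 41 symbols had 1 row. The RNA came from inguinal white adipose tissue of C57BL/6 mice, a fat depot under the skin of the groin, where skin is a near neighbour of the dissected fat. For 3 libraries, named A2B1 1 to 3, AAV (adeno-associated virus) encoding Hnrnpa2b1, which binds RNA and takes part in its splicing and transport, had been injected into the depot. For the other 3, named control 1 to 3, the injected virus is called a scrambled control in the sample labels and GFP in the series text. Both groups therefore carried a virus, and no depot without injection was used. The labels name adipocytes as the source beside the fat tissue; age, number of animals and the viral promoter are not given. Whether each library is a separate animal is not stated either, so the spread behind each p-value may be technical in part.

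Epithelial cells line surfaces and ducts and are held together by E-cadherin, claudins and desmosomes, which anchor keratin filaments. Keratins work in pairs, and the pair tells the kind of epithelium. Krt8 and Krt18 form the filaments of simple epithelia such as mammary luminal cells, gut and liver parenchyma. Krt5 and Krt14 mark the basal layer of the epidermis and of the mammary duct, and Krt1 and Krt10 the upper layers of the epidermis. Milk proteins (caseins, Wap and Lalba) are made by mammary luminal cells under the control of prolactin and the transcription factor Elf5.

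The libraries held 72961324 to 86663359 counts each. Values below are normalized read counts (CPM, counts scaled to a common library total with TMM factors), tests are edgeR's quasi-likelihood test, and p-values are adjusted over all 19146 tested genes, with under 0.05 called. Hnrnpa2b1, the delivered gene, had 763, 789 and 748 CPM in A2B1 1, 2 and 3 and 555, 525 and 605 CPM in control 1, 2 and 3. All A2B1 libraries were above all controls (log2 fold change 0.45, SE 0.09, edgeR adjusted p = 0.0654), and the exact two-sided permutation p was 0.1, and no design of 3 against 3 can go lower. Xist had 0.0629 to 0.175 CPM in any library, against 68.9 to 102 CPM for the Y-linked gene Eif2s3y, the pattern of male tissue in all 6. As background, the mammary rudiment of the male mouse largely regresses before birth.

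Markers of 3 other tissues were unequal among the libraries, and several epithelial genes had the same order of libraries. The 20 hepatocyte markers (Alb, Apoa1, Hnf4a and others) summed to 14621 CPM in A2B1 1 and 1681 CPM in A2B1 3, against 123 in A2B1 2 and 182, 165 and 264 in control 1, 2 and 3. All 20 were highest in A2B1 1 and next highest in A2B1 3, and 15 of the 20 had at least 1 CPM in every control. This list was chosen after its values were seen, so the shared order is a description only. Alb, serum albumin, stood at 6238, 67.1 and 808 CPM in A2B1 1, 2 and 3 and at 102, 86.7 and 153 CPM in control 1, 2 and 3. The 8 B cell markers summed to 348 CPM in control 1 and 42.8 CPM in control 2, and to between 4.34 and 6.20 CPM in the other 4 libraries. The 11 skeletal muscle markers summed to 23.2, 26.8 and 188 CPM in control 1, 2 and 3 and to 3.78, 7.80 and 14.3 CPM in A2B1 1, 2 and 3. Of 8 tested, 5 had all A2B1 libraries below all controls, against 15.5% of all tested genes. EdgeR called 1 of the 8, Pvalb, lower, against 1.33% of all tested genes. The 9 adipocyte markers summed to 31098 to 36730 CPM, and edgeR called 2 lower, Lep and Cidec, while 4 were higher at an unadjusted p under 0.05. DESeq2 called 3 higher and 3 lower. Over all tested genes edgeR called 1.82% and DESeq2 15.2%, and 11.5% were higher at an unadjusted p under 0.05.

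The milk proteins and the basal keratins of duct and epidermis were at or near 0 in every library. Trp63, another basal marker, was present at 3.34 to 8.41 CPM. The name mammary and skin epithelium is used here for the gene list only. Some genes known from upper epidermis were present, among them Krt10 and Pkp1, whose values follow with their roles. Of the 41 genes, 6 had no count in any library: the basal keratins Krt14 and Krt17, the milk proteins Csn1s1, Csn3 and Wap, and the epidermal desmoglein Dsg3. A count of 0 allows up to 3 counts, which is 0.0337 to 0.0434 CPM depending on the library. Krt5, the basal partner of Krt14, had 3 counts in A2B1 1 and 0 elsewhere. Krt1, of the suprabasal epidermis, had 2 counts in control 1 and 0 elsewhere. Csn2, beta-casein, had 4 counts in control 1, 3 in control 2 and 0 in the remaining libraries. Lalba, the lactose synthase subunit, reached 25 counts in control 1, and Elf5, the luminal regulator, had 8 counts at most. The other genes too sparse to test were Krt15, Cldn4, Cldn7, Wfdc18, Grhl2, Esrp1 and Dsc3, with at most 33 counts in a library.

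Epcam, the adhesion molecule used to sort epithelial cells, was tested but had only 5, 12 and 28 counts in A2B1 1, 2 and 3 and 28, 11 and 8 in control 1, 2 and 3. Its groups overlapped, with 0.200 ± 0.158 against 0.197 ± 0.152 CPM (SD, n = 3 each). The log2 fold change was 0.04 (SE 0.77, edgeR adjusted p = 0.982). Wider lists held many silent genes and a few clear ones. Among 44 keratins outside the list 25 had no count and 40 stayed under 1 CPM in every library. The exceptions were Krt79, of hair follicle and sebaceous duct, at 8.15 to 16.1 CPM, Krt36 at 2.22 to 4.88 CPM, Krt222 at 2.51 to 3.88 CPM and Krt80 at 0.860 to 2.75 CPM. Of 27 hair follicle genes measured, 14 had no count and 24 stayed under 1 CPM. Of 22 epidermal differentiation genes 8 had no count, among them involucrin (Ivl), filaggrin (Flg) and Krt2, and 17 stayed under 1 CPM. Sbsn, a secreted protein of the epidermis, had 14.2 to 25.6 CPM (log2 fold change -0.34, SE 0.17, edgeR adjusted p = 0.278), and Dmkn, dermokine, 0.618 to 5.61 CPM. No gene of these 3 lists was called by edgeR, DESeq2 or limma-voom or had an unadjusted p under 0.05.

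**Figure D1:**
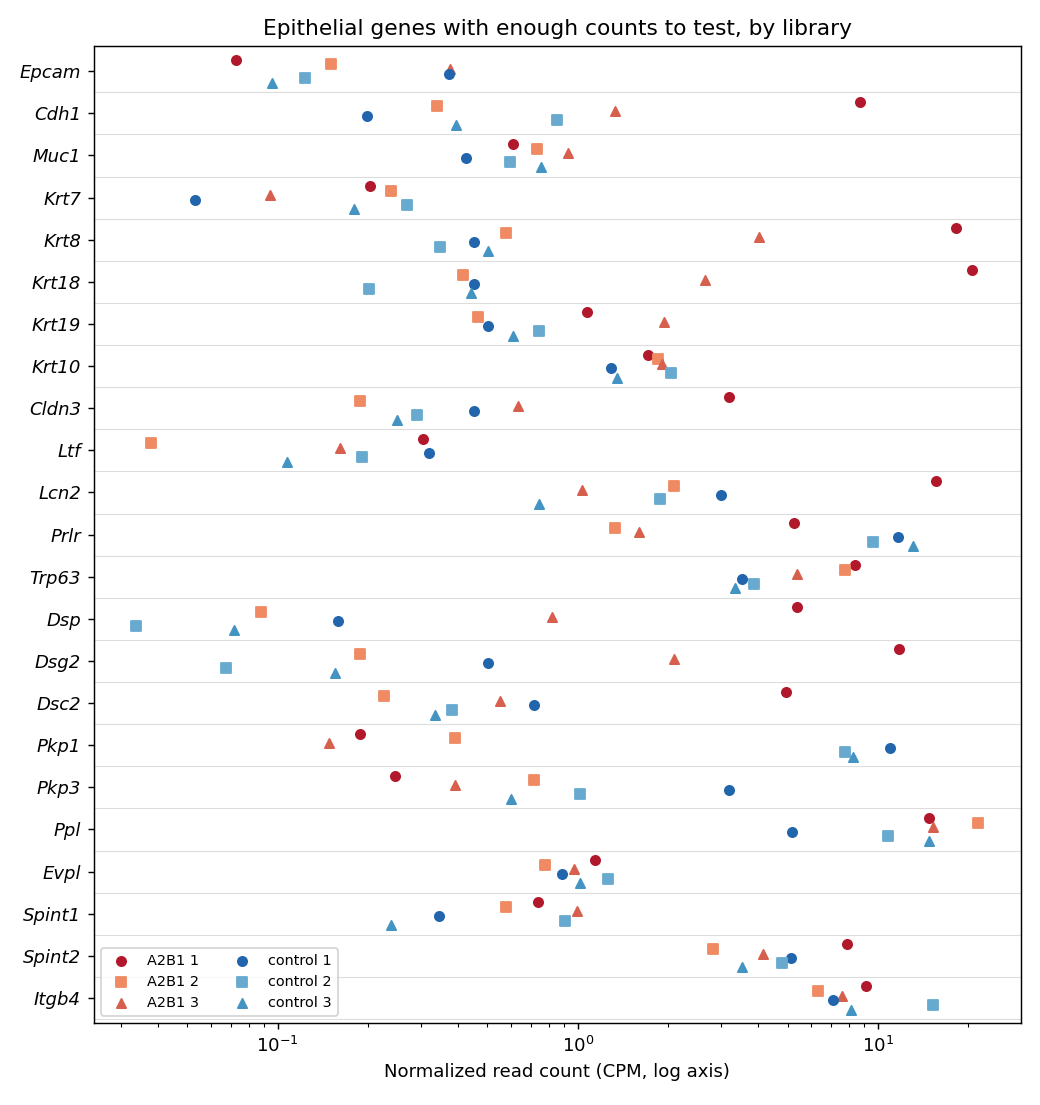
Normalized read counts (CPM, log axis) of the 23 epithelial genes with enough counts to test, 1 point per library; red points are A2B1 libraries and blue points controls. A2B1 1 stands far to the right for Cdh1, Krt8, Krt18, Cldn3, Lcn2, Dsp, Dsg2 and Dsc2, with A2B1 3 next for 6 of these 8, while Pkp1 has all 3 A2B1 libraries under 0.4 CPM and all controls above 7 CPM.

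Of the 41 genes, 23 had enough counts to be tested, and 22 of these did not pass the edgeR test. Pkp1 fell and was the only gene called, 1 of 23 against 1.82% of all tested genes (1.33% lower and 0.496% higher). At an unadjusted p under 0.05 there were 5 higher genes (Krt8, Krt18, Trp63, Dsp and Dsg2) and 3 lower ones (Prlr, Pkp1 and Pkp3), beside 24.2% of all tested genes in either direction. DESeq2 called 8 of the 23, against 15.2% of all tested genes: Cdh1, Krt8, Krt18, Prlr, Trp63, Dsp, Dsg2 and Pkp1. Limma-voom called 2, Pkp1 and Prlr, against 2.69% of all tested genes. Groups did not overlap for 4 of the 23, namely Krt8 and Trp63 with A2B1 above and Prlr and Pkp1 with A2B1 below, beside 30.6% of all tested genes. The median log2 fold change of the 23 was 0.62 and that of all tested genes 0.00206. In whole tissue, a lower level from fewer cells of a type cannot be told apart from less RNA in each cell.

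The simple epithelial keratins were high in A2B1 1, intermediate in A2B1 3 and low in the other 4 libraries. Krt8 (mm10 chromosome 15, 101996698 to 102004482, minus strand) had 18.3, 0.579 and 4.02 CPM in A2B1 1, 2 and 3 and 0.451, 0.348 and 0.502 CPM in control 1, 2 and 3. Krt18, its filament partner (chromosome 15, 102028180 to 102032027, plus strand), had 20.6, 0.415 and 2.65 CPM in A2B1 1, 2 and 3 and 0.451, 0.202 and 0.442 CPM in control 1, 2 and 3. The pair thus had the same order of A2B1 libraries, and A2B1 2 lay inside the range of the controls for Krt18 and just above it for Krt8. The log2 fold changes were 4.13 for Krt8 (SE 1.23, edgeR adjusted p = 0.143) and 4.43 for Krt18 (SE 1.47, edgeR adjusted p = 0.165), so neither passed. Without A2B1 1 they were 2.42 and 2.08. Without A2B1 1 and 3, a setting chosen after seeing the data in which the lone A2B1 library is assumed to vary like the controls, they were 0.44 and 0.21. Exons of Krt8 overlap Gm36026 on the opposite strand, and whether the counting used strand is not stated, so its count is uncertain.

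The other simple keratins did not share this order. Krt19, found in ducts, had 1.07, 0.465 and 1.94 CPM in A2B1 1, 2 and 3 and 0.504 to 0.741 CPM in controls, highest in A2B1 3 (log2 fold change 0.90, SE 0.52, edgeR adjusted p = 0.33). Krt7, another ductal keratin, stayed between 0.0531 and 0.269 CPM in every library (log2 fold change 0.08, edgeR adjusted p = 0.953). Krt10, the suprabasal keratin, had 1.71, 1.85 and 1.91 CPM in A2B1 1, 2 and 3 and 1.29, 2.04 and 1.35 CPM in control 1, 2 and 3, with overlapping groups and an edgeR adjusted p = 0.618. It was present without its usual partner Krt1, and its exons overlap Gm11940 on the other strand.

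Upstream sequence is shown for Krt8 and Krt18, which had the same order of A2B1 libraries, beside Epcam, which did not share it. The windows are the 250 bases before the RefSeq start on GRCm38.p6, read 5′ to 3′ on the strand of the gene. GENCODE starts Krt8 and Krt18 further upstream, so that 140 and 36 bases of their windows lie inside the GENCODE gene, and only the 110 and 214 bases before it are printed; Epcam is printed whole. Capitals mark CACCTG or its reverse complement CAGGTG, an E-box bound by repressors of epithelial genes such as Zeb1. The printed bases are chr15:102004483-102004592 (minus strand) for Krt8, chr15:102027966-102028179 (plus strand) for Krt18 and chr17:87635729-87635978 (plus strand) for Epcam.
Krt8: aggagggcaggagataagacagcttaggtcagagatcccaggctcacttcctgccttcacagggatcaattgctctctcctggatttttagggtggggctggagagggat
Krt18: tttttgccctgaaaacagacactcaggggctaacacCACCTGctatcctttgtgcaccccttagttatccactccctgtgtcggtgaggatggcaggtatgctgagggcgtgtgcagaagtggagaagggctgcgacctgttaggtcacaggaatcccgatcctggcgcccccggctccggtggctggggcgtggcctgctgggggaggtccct
Epcam: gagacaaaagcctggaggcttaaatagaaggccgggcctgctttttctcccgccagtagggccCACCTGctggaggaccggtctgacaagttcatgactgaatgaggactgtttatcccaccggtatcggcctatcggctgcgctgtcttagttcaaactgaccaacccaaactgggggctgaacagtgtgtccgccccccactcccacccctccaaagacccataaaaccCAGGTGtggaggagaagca

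The printed bases of Krt18 held 1 E-box, those of Epcam 2 and those of Krt8 0; the 1 copy in the window of Krt8 lies among the bases inside the GENCODE gene. Promoters of 23 of the 41 genes were searched, in 27 windows of 250 bases before the RefSeq start. Genes of the list on chromosome 18 (Dsg2, Dsg3, Dsc2 and Dsc3) were left out. Further genes, among them Cdh1 and Pkp1, had no entry in the promoter set used. The set of all promoters was not limited by chromosome, so the shares come from unlike sets. Of the 27 windows 13 held CACCTG on either strand (48.1%), beside 17.2% of all 32851 promoter windows of this length. The grainyhead-like motif AACCGGTT was in 0 of the 27 and in 0.116% of all, and TATAAA in 3 of the 27 (11.1%) and in 12.4% of all. A match describes letters only, and a missing match says only that these letters are not in the window.

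Cdh1, Dsp, Dsg2 and Cldn3 had the order of Krt8 and Krt18, with A2B1 1 highest and A2B1 3 next, while Dsc2 was highest in A2B1 1 with control 1 next. Cdh1, E-cadherin, had 8.70, 0.340 and 1.33 CPM in A2B1 1, 2 and 3 and 0.199, 0.853 and 0.394 CPM in control 1, 2 and 3. Dsp, desmoplakin, which ties keratin filaments to the desmosome, had 5.39, 0.0880 and 0.820 CPM in A2B1 1, 2 and 3 and 0.159, 0.0337 and 0.0717 CPM in control 1, 2 and 3. For both genes A2B1 2 lay within the controls, and A2B1 1 was 6.54 and 6.57 times the next library. Dsg2, the desmoglein of simple epithelia, had 11.8, 0.189 and 2.10 CPM in A2B1 1, 2 and 3 and 0.504, 0.0673 and 0.155 CPM in control 1, 2 and 3. Dsc2, a desmocollin, had 4.95, 0.226 and 0.551 CPM in A2B1 1, 2 and 3 and 0.717, 0.382 and 0.334 CPM in control 1, 2 and 3. Cldn3, a tight junction claudin, had 3.19, 0.189 and 0.632 CPM in A2B1 1, 2 and 3 and 0.451, 0.292 and 0.251 CPM in control 1, 2 and 3.

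None of these 5 genes passed the edgeR test. Their log2 fold changes were 2.83 (SE 1.26) for Cdh1, 4.57 (SE 1.55) for Dsp, 4.28 (SE 1.59) for Dsg2, 2.0 (SE 1.16) for Dsc2 and 2.01 (SE 0.99) for Cldn3, with edgeR adjusted p of 0.167 to 0.339. Without A2B1 1 and 3 the values were -0.49, 0.03, -0.33, -1.05 and -0.78, so that only Dsp kept a positive sign. Exons of Dsp, Dsg2 and Cldn3 overlap other gene models on the opposite strand, so their counts are uncertain.

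Lcn2, lipocalin 2, an iron-siderophore binding protein of epithelia, neutrophils, liver and fat, was the eighth gene more than 2-fold above every other library in A2B1 1. It had 15.7, 2.10 and 1.04 CPM in A2B1 1, 2 and 3 and 3.0, 1.89 and 0.741 CPM in control 1, 2 and 3. Here A2B1 3 was not second, and the ratio of A2B1 1 to A2B1 3 was 15.1. The log2 fold change of 1.74 (SE 1.12, edgeR adjusted p = 0.387) was -0.24 without A2B1 1.

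Counted over all tested genes, A2B1 1 was more than 2-fold above every other library for 604 genes, or 3.15%, and for 8 of the 23 epithelial genes. Control 1 stood out so for 1 of the 23, Pkp3, against 2.95% of all tested genes. A2B1 2, A2B1 3, control 2 and control 3 did so for 0 of the 23, against 0.12%, 0.209%, 0.198% and 0.261% of all tested genes. The ratio between A2B1 1 and A2B1 3 was 4.54 to 15.1 for these 8 genes (median 6.55), and 6.03 to 13.7 for the 20 hepatocyte markers (median 8.28). It was 0.192 to 3.29 for the other 15 tested epithelial genes (median 1.18) and 0.788 to 1.29 for the 9 adipocyte markers (median 0.881). The 8 genes were chosen by their level in A2B1 1, so a high ratio was built into them. The hepatocyte list was also chosen after its values were seen. Summed, the 8 epithelial genes made 88.4, 4.13 and 13.1 CPM in A2B1 1, 2 and 3 and 5.93, 4.06 and 2.89 CPM in control 1, 2 and 3. The other 33 epithelial genes made 42.7 to 59.7 CPM in every library. The part of hepatocyte transcripts in these values was not tested.

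**Figure D2:**
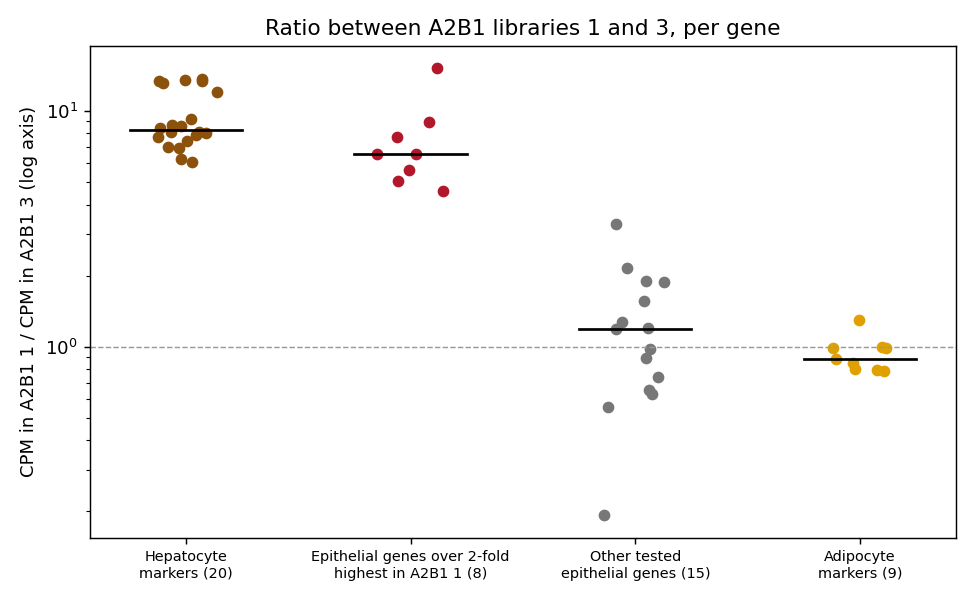
Ratio of normalized read counts in A2B1 1 to those in A2B1 3 (log axis), 1 point per gene, with the median as a line, for 20 hepatocyte markers, the 8 epithelial genes more than 2-fold highest in A2B1 1, the other 15 tested epithelial genes and 9 adipocyte markers. The first and the second set have medians of 8.28 and 6.55, and the other sets medians of 1.18 and 0.881. The first set was chosen after its values were seen, and the second by its level in A2B1 1.

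Some genes outside the list that belong to polarized or simple epithelia showed the same order of libraries, and others did not. Tjp3 and Lad1 were highest in A2B1 1 with control 1 next, and Cldn1 with control 2 next. Ehf had 0 counts in A2B1 1. Esrp2, a splicing regulator of epithelial cells, had 8.51, 0.0880 and 1.32 CPM in A2B1 1, 2 and 3 and 0.0663, 0.0449 and 0.203 CPM in control 1, 2 and 3 (log2 fold change 4.96, SE 1.68, edgeR adjusted p = 0.167). Its count is uncertain because Nfatc3 has exons over it on the opposite strand. Its paralog Esrp1, a marker of mammary and skin epithelium, had 2, 5 and 21 counts in A2B1 1, 2 and 3 and 7, 9 and 10 in control 1, 2 and 3, with A2B1 1 the lowest. Cgn, Ocln and Foxa1 were picked for display because of their values. Cgn, the tight junction protein cingulin, had 6.65, 0.138 and 0.753 CPM in A2B1 1, 2 and 3 and at most 0.251 CPM in a control. Ocln, occludin, had 1.84, 0.0880 and 0.605 CPM in A2B1 1, 2 and 3 and at most 0.191 CPM in a control. Foxa1, a transcription factor of luminal mammary cells and of liver, had 291, 0 and 23 counts in A2B1 1, 2 and 3 and at most 9 counts in a control. Over the 11 tested members of the wider epithelial program 0 passed, 1 was higher and 1 lower at an unadjusted p under 0.05 and by DESeq2, and the median log2 fold change was -0.18. Over the 11 tested members of the other tight and adherens junction genes 0 passed, and the median was -0.02. Of these, 2 were higher and 2 lower at an unadjusted p under 0.05, and DESeq2 called 1 higher and 1 lower. For comparison with both lists, edgeR called 1.82% of all tested genes and DESeq2 15.2%. At an unadjusted p under 0.05, 11.5% of all tested genes were higher and 12.7% lower. The catenin Ctnnb1, which links cadherins to the cytoskeleton, had a log2 fold change of -0.23 (edgeR adjusted p = 0.183), and its count is uncertain through overlapping gene models.

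Pkp1 showed the opposite picture, high in every control and low in every A2B1 library. Plakophilin 1 (mm10 chromosome 1, 135871395 to 135919207, minus strand) is a desmosomal plaque protein best known from the upper epidermis. It had 0.188, 0.390 and 0.148 CPM in A2B1 1, 2 and 3 and 10.9, 7.76 and 8.24 CPM in control 1, 2 and 3. Group means were 0.242 ± 0.130 and 8.98 ± 1.71 CPM (SD, n = 3 each). The difference on the log2 scale was -5.20 (SE 0.43, edgeR adjusted p = 0.0144). In summed counts, 55 against 2206, the ratio of control to A2B1 was 36 (95% exact Clopper-Pearson interval 27.6 to 48.0, counting error only). The call was lost without A2B1 1, A2B1 3 or control 2, with edgeR adjusted p of 0.0616, 0.0663 and 0.0591, while the log2 fold change stayed between -5.73 and -4.93 with any 1 library left out.

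Of the other desmosomal genes, outside the list, Pkp2 fell. This plakophilin of simple epithelia and heart went from 69.9, 63.4 and 89.6 CPM in control 1, 2 and 3 to 41.3, 41.7 and 38.9 CPM in A2B1 1, 2 and 3 (log2 fold change -0.87, SE 0.14, edgeR adjusted p = 0.0402); its call was lost with any 1 library left out. Dsg1a, a desmoglein of the epidermis, had 3, 0 and 3 counts in A2B1 1, 2 and 3 and 149, 47 and 57 in control 1, 2 and 3, a ratio of control to A2B1 of 37.9 (95% exact interval 17.2 to 104, counting error only; edgeR adjusted p = 0.053). Its near copy Dsg1b had 0 counts in any A2B1 library while controls 1, 2 and 3 held 72, 28 and 13, at least 33.8-fold lower in A2B1 when its group is set to 3 counts in sum, or at least 27.1-fold with the counting error of the controls included (edgeR adjusted p = 0.0935). Reads of these near-identical genes can be divided between them, so both values are uncertain. Dsg1c, on the same list, did not share the fall and was too sparse to test. It had 53, 0 and 8 counts in A2B1 1, 2 and 3 and 3, 3 and 0 in control 1, 2 and 3. Jup, plakoglobin, shared by desmosomes and adherens junctions, had 47, 51.7 and 60.3 CPM in A2B1 1, 2 and 3 and 62.3, 98.7 and 97.3 CPM in control 1, 2 and 3 (edgeR adjusted p = 0.121). Perp and Pkp4 had positive log2 fold changes, of 2.59 and 0.34 (edgeR adjusted p of 0.200 and 0.228). Perp was highest in A2B1 1, with 8.05, 0.566 and 1.33 CPM in A2B1 1, 2 and 3. Its controls 1, 2 and 3 had 0.305, 0.752 and 0.585 CPM. Of 6 tested members of this list edgeR called 1 lower, against 1.82% of all tested genes. DESeq2 called 4 lower and 1 higher, against 15.2%, and limma-voom 2 lower, against 2.69%. The median log2 fold change was -0.79, and 4 had non-overlapping groups, against 30.6% of all tested genes.

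Pkp3, the plakophilin of most epithelia, had 0.246, 0.717 and 0.390 CPM in A2B1 1, 2 and 3 and 3.18, 1.02 and 0.597 CPM in control 1, 2 and 3 (log2 fold change -1.82, SE 0.72, edgeR adjusted p = 0.195). Control 1 carried most of the difference, and A2B1 2 lay above control 3. Control 1 was also the library with the most B cell transcripts, and it alone held counts of the desmocollin Dsc3 (33). Ly6d, on the luminal mammary list and picked for display because of its values, had 16.9, 2.05 and 0.179 CPM in control 1, 2 and 3 and at most 0.440 CPM in A2B1 libraries. The part of B cell transcripts in these values was not tested. Without control 1 the log2 fold change of Pkp3 was -0.83.

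**Figure D3:**
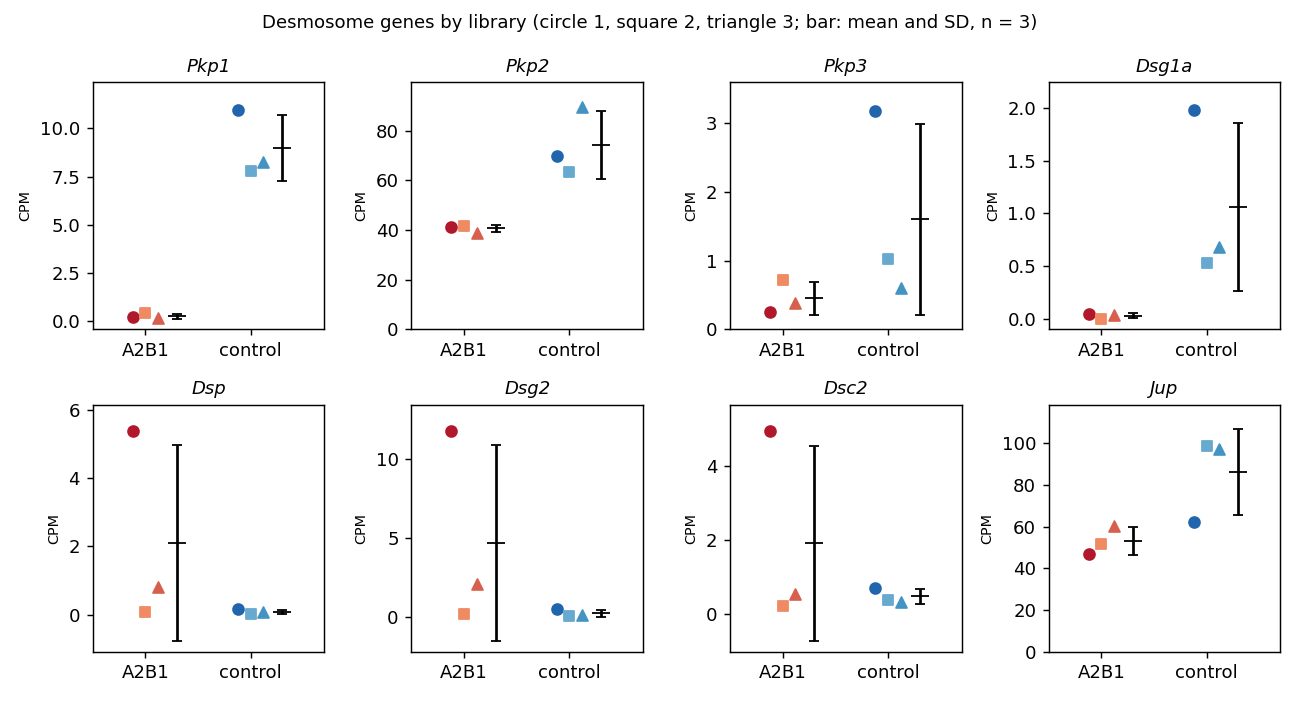
Normalized read counts (CPM) of 8 desmosome genes by library: circles, squares and triangles are libraries 1, 2 and 3 of each group, and bars the mean and SD (n = 3). Pkp1, Pkp2, Dsg1a and Jup are lower in all A2B1 libraries than in all controls, whereas Dsp, Dsg2 and Dsc2 are high in A2B1 1 and Pkp3 in control 1.

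The plakin genes of the cornified envelope, a cross-linked layer under the epidermal cell surface, did not pass. Ppl, periplakin, was the most abundant of the 41 in CPM, with 14.8, 21.6 and 15.2 CPM in A2B1 1, 2 and 3 and 5.16, 10.8 and 14.9 CPM in control 1, 2 and 3. The groups touched, with A2B1 1 just under control 3 (log2 fold change 0.74, SE 0.39, edgeR adjusted p = 0.291). Its partner envoplakin, Evpl, had 0.780 to 1.26 CPM in all libraries (log2 fold change -0.13, edgeR adjusted p = 0.797). Per kilobase of exon, the highest mean levels over all libraries were 2.87 CPM per kb for Krt18, 2.06 for Krt8 and 2.0 for Ppl, and the lowest among tested genes was 0.0245 for Krt7; the first and second of these averages rest on A2B1 1.

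Prlr and Trp63 had groups that did not overlap, in opposite directions, and neither passed the edgeR test. Prlr, the prolactin receptor, which is made by mammary cells, liver and adipocytes, had 5.27, 1.33 and 1.60 CPM in A2B1 1, 2 and 3 and 11.7, 9.65 and 13.0 CPM in control 1, 2 and 3. All A2B1 libraries were below all controls, and A2B1 1 was the nearest to them (log2 fold change -2.07, SE 0.56, edgeR adjusted p = 0.114). Without A2B1 1 the log2 fold change was -2.95 and passed (edgeR adjusted p = 0.0472). Its count is uncertain because Gm21973 shares exon bases with it on its own strand. Trp63, the p53 relative that governs basal epithelial cells and has several isoforms, had 8.41, 7.76 and 5.38 CPM in A2B1 1, 2 and 3 and 3.53, 3.86 and 3.34 CPM in control 1, 2 and 3. All A2B1 libraries were above all controls (log2 fold change 1.01, SE 0.21, edgeR adjusted p = 0.069), while Krt5 and Krt14, other basal markers, had 0 to 3 counts. Gene counts do not tell isoforms apart. Without A2B1 1 and 3 its log2 fold change was 1.14.

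Of the remaining genes none passed and all had overlapping groups. Muc1, a mucin of the luminal surface, had 0.425 to 0.928 CPM (log2 fold change 0.35, SE 0.32), and Ltf, lactoferrin of milk and neutrophil granules, 0.0377 to 0.318 CPM (-0.30, SE 0.75). The protease inhibitors Spint1 and Spint2, which restrain matriptase and related surface proteases, had 0.239 to 0.995 CPM and 2.83 to 7.86 CPM, with log2 fold changes of 0.62 (SE 0.54) and 0.14 (SE 0.39). Spint2 was highest in A2B1 1, and without that library its log2 fold change was -0.35. Itgb4, the hemidesmosomal integrin subunit also made by Schwann and endothelial cells, had 9.11, 6.31 and 7.57 CPM in A2B1 1, 2 and 3 and 7.10, 15.2 and 8.13 CPM in control 1, 2 and 3 (log2 fold change -0.41, SE 0.32, edgeR adjusted p = 0.47). Its exons overlap B230344G16Rik on the other strand. Its partner Itga6 fell, from 161, 147 and 113 CPM in control 1, 2 and 3 to 78.5, 74.5 and 65.3 CPM in A2B1 1, 2 and 3 (log2 fold change -0.95, SE 0.15, edgeR adjusted p = 0.0402), and its call was lost with any 1 library left out. It was 1 of 9 tested genes of hemidesmosomes and their laminin to pass, against 1.82% of all tested genes. The median of the 9 was -0.39, and Lamb3, a chain of that laminin, had -0.81 (SE 0.17, edgeR adjusted p = 0.0704).

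On the luminal and myoepithelial lists Mfge8, Oxtr and Acta2 fell, and 15 of the 18 tested genes did not pass. Over all tested genes 1.82% passed, 1.33% lower and 0.496% higher. Mfge8, a milk fat globule protein also secreted by fat, vessel and immune cells, fell from 343, 296 and 321 CPM in control 1, 2 and 3 to 155, 152 and 157 CPM in A2B1 1, 2 and 3 (log2 fold change -1.05, SE 0.08, edgeR adjusted p = 0.0144); without any 1 A2B1 library the call was lost. It was the 1 gene of 12 tested luminal mammary genes to pass, and the median of these was 0.01. Abundant members such as Xdh, an enzyme of milk fat secretion, and Stat5a, which acts under the prolactin receptor, had log2 fold changes of 0.07 and 0.29 (edgeR adjusted p of 0.849 and 0.207). Kit, a receptor of luminal progenitors and mast cells, had -1.13 (SE 0.23, edgeR adjusted p = 0.0677). Oxtr, the oxytocin receptor of myoepithelium, also found on adipocytes, fell from 126, 53.0 and 45.9 CPM in control 1, 2 and 3 to 6.08, 5.55 and 6.99 CPM in A2B1 1, 2 and 3 (log2 fold change -3.60, SE 0.45, edgeR adjusted p = 0.0326). Acta2, smooth muscle actin, fell from 137, 178 and 139 CPM in control 1, 2 and 3 to 58.8, 73.1 and 44.8 CPM in A2B1 1, 2 and 3 (log2 fold change -1.36, SE 0.20, edgeR adjusted p = 0.0375). These were 2 of 6 tested myoepithelial genes, with a median of -0.69, and 3 of the 11 listed, Krt6b, Krt16 and Il17b, had no count in any library. The call of Acta2 was lost with any 1 library left out, and that of Oxtr with any 1 except control 1.

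Lists of further cells that could carry keratins or these markers had no gene called by edgeR. Mesothelial markers, of cells that also use Krt8, Krt18 and Krt19, had 0 of 4 tested genes called by edgeR or DESeq2 and 1 higher at an unadjusted p under 0.05. Wt1 had 3 counts in 1 library and Msln 20 at most, and the smallest p belonged to Lrrn4 (log2 fold change 1.51, edgeR adjusted p = 0.191) and Gpm6a (-0.70, edgeR adjusted p = 0.275). Neutrophil markers, which bear on Lcn2 and Ltf, had 0 of 6 called (1 higher and 1 lower at an unadjusted p under 0.05, 1 lower by DESeq2), with S100a8 at -2.28 (edgeR adjusted p = 0.142) and S100a9 at 1.79 (edgeR adjusted p = 0.205); their sum was 12.8 CPM in A2B1 1 and 3.82 to 15.1 CPM elsewhere. Sebaceous, hair follicle, melanocyte and Schwann lists had 0 called of 5, 4, 3 and 9 tested genes; DESeq2 called 1 higher and 1 lower sebaceous gene and 0 of the others. Their smallest p belonged to the melanocortin receptor Mc5r at 1.71 (edgeR adjusted p = 0.0778), Krt36 at 0.62 (0.225), Pmel at -0.60 (0.327) and Mbp at -0.22 (0.465). In the hepatocyte list, chosen after its values were seen, 0 of 19 tested genes were called, and the median log2 fold change was 5.03. At an unadjusted p under 0.05, 18 were higher, against 11.5% of all tested genes, and DESeq2 called 18 higher. In the B cell list edgeR called 0 of 8 and DESeq2 called 8 lower. Over all tested genes DESeq2 called 15.2%.

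**Figure D4:**
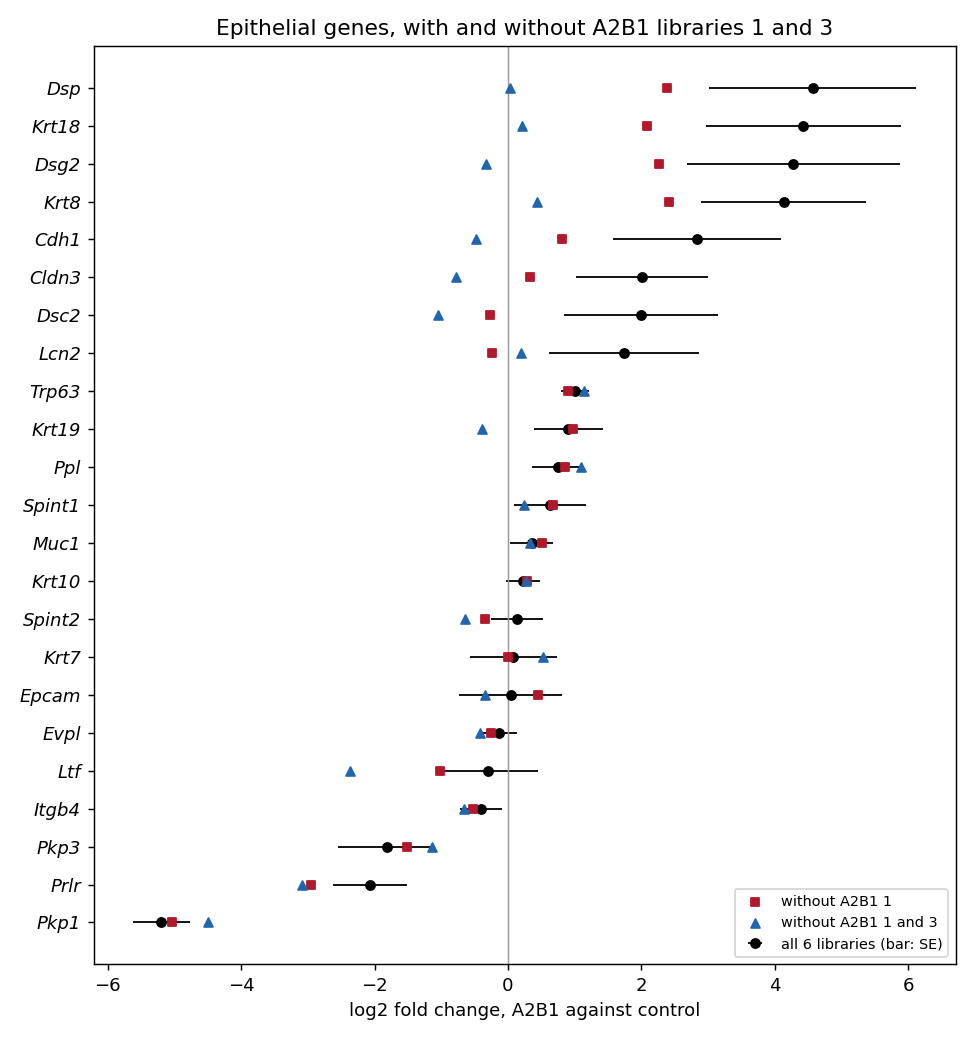
log2 fold changes of A2B1 against control for the 23 tested epithelial genes with all 6 libraries (black, bars are standard errors), without A2B1 1 (red squares) and without A2B1 1 and 3 (blue triangles). Pkp1, Prlr and Trp63 keep their side of 0, at -5.20, -2.07 and 1.01 with all libraries, while the values of Dsp, Krt18, Dsg2, Krt8, Cdh1, Cldn3 and Dsc2 shrink or turn.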

How the data were processed

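Frozen fat was extracted with Trizol and libraries were built with an Illumina TruSeq kit, per the labels' protocols. Bowtie and mm10 are named in the submitters' processing notes; the counter, annotation and strand setting are not stated. The authors deposited raw whole-number counts for each gene of 6 libraries, per the file headers; 0 columns belonged to other samples. The values 1, 2, 3 and 4 occur 8211, 6699, 7257 and 3493 times, so the counts may be rounded estimates. Chi-square per degree of freedom between libraries of a group was at least 69.9, so none was a copy of another.

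Counts were analysed in R 4.3.3 with edgeR 4.0.16 (robust quasi-likelihood F test, TMM factors 0.917 to 1.03, group as the only term, two-sided). Genes kept by filterByExpr (minimum count 10, minimum total 15) were tested, 19146 of 31438 with any count, with Benjamini-Hochberg adjustment over all of them. The SE is the log2 fold change divided by the square root of F. The scripts were tested on simulated data. Alternatives were other scalings, DESeq2 1.42.0, limma-voom (limma 3.58.1) with quality weights, other filters and each library left out. The members and lists were chosen with earlier results of these data known; the hepatocyte list, and the genes whose promoters are printed, were chosen after their values were seen. Positions, exon lengths and overlaps come from GENCODE on mm10. Values in every library were given for called genes, the 6 smallest p-values, a set of defining markers and the most abundant gene of each role; from other lists, for called genes and the 2 smallest p-values. One result that this rule would name is not reported here. Without molecular identifiers, intervals and floors describe counting error alone.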

Additional observations from a re-analysis of the deposited data

How the results depend on the processing

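No paired analysis was possible because the libraries of the groups share no replicate numbers in the labels. Over all genes, edgeR called 349 genes, DESeq2 2919, and edgeR with 1 library left out 10 to 57. Without A2B1 1 and 3 it called 0, with the lone A2B1 library assumed to vary like the controls, and without A2B1 1 and control 1 it called 7; both settings were chosen after seeing the data. Of the epithelial genes 1 was called, by DESeq2 8, by limma-voom 2, with 1 library left out 0 to 1 (without A2B1 1 the call was Prlr, not Pkp1), and in each of the settings without 2 libraries 0. Hnrnpa2b1 passed with DESeq2 (0.45) and limma-voom (0.46). The causes were not tested. Over 15 settings the log2 fold change changed sign in 12 of 23 epithelial genes.

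With 1 library left out it ran from -0.78 to 0.86 for Epcam, -0.32 to 0.61 for Krt7, -1.02 to 0.18 for Ltf, -0.24 to 2.26 for Lcn2, -0.28 to 2.53 for Dsc2, -0.25 to 0.021 for Evpl, -0.35 to 0.42 for Spint2, -0.60 to 0.013 for Itgb4 and -0.092 to 1.62 for Tchh, a hair follicle gene. Limma-voom gave -0.21 for Krt7 and -0.0021 for Spint2. Without A2B1 1 and control 1 Krt7 had -0.42 and Spint2 -0.26. Without A2B1 1 and 3 the values were -0.35 for Epcam, -0.49 for Cdh1, -0.39 for Krt19, -0.78 for Cldn3, -0.33 for Dsg2, -1.05 for Dsc2, -0.64 for Spint2, -0.23 for Esrp2, 0.014 for Mbp, -0.72 for Tat and -0.12 for Apoa1. Depth limits the 18 untested genes, with at most 33 counts in a library.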
